A study of Mus musculus with 6 samples.

Results

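The genes described here are 36 mouse genes, 35 of them known from other work to be imprinted or to lie in an imprinted cluster, out of 55335 gene identifiers measured. They were listed by symbol, and each matched 1 identifier. The list was drawn up because Igf2r and its antisense RNA Airn were both higher in the treated cells, so the difference in those genes is a description here and not a finding. Usf3 is the 36th gene. No imprinted cluster is known here to hold it, and its difference was also known when the list was made. Messenger RNA was sequenced, with a stranded kit, from 6 libraries of bEnd.3, a mouse brain endothelial cell line immortalised with a viral oncogene. Of these, 3 control libraries (Ctrl) came from cells given 100 µl of culture medium, and 3 mitochondrial transplantation libraries (Mito_T) from cells given mitochondria of primary mouse astrocytes in that volume. Both groups carry the genotype WT in the labels, both were grown in DMEM with serum, and cells were collected after 24 h. The cells are labelled endothelial, and of 16 endothelial markers 9 were under 1 FPKM (fragments scaled to gene length and library size) in every library. Among those 9, Cdh5, Pecam1 and Cldn5 did not exceed 0.0685, 0.269 and 0.129 FPKM, whereas Eng ranged from 55.5 to 68.95, Cd34 from 58.0 to 82.2, Flt1 from 7.43 to 11.1 and Tie1 from 4.94 to 6.16 FPKM. The single comparison asks how mitochondria from astrocytes alter the endothelial cell.

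Imprinted genes are transcribed mainly from the copy inherited from 1 parent, because DNA methylation laid down in the germ line differs between the copies. They lie in clusters, and in several of these a long non-coding RNA made from the paternal chromosome silences protein-coding neighbours. In mouse, Igf2r is expressed from the maternal copy, and Airn, which starts inside an intron of Igf2r and runs in the opposite direction, silences Igf2r on the paternal copy. The deposited values do not separate the parental copies, so each level below is the sum of both.

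The start sites of 4 genes named in the results are shown as a description. Igf2r and Airn are the overlapping pair, Plagl1 had the lowest log2 difference among the members, and Peg3 had the widest spread between libraries. Each sequence is the 250 bases before the RefSeq start on GRCm38.p6, read 5′ to 3′ on the gene's strand, with every CG in capitals. The windows are chr17:12769707-12769956 on the minus strand, chr17:12741061-12741310 on the plus strand, chr10:13090582-13090831 on the plus strand and chr7:6730420-6730669 on the minus strand.
Igf2r: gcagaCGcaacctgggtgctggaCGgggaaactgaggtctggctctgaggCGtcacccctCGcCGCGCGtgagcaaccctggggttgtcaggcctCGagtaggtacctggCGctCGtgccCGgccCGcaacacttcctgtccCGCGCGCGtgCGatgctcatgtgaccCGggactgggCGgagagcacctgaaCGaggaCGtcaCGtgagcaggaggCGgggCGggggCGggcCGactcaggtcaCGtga
Airn: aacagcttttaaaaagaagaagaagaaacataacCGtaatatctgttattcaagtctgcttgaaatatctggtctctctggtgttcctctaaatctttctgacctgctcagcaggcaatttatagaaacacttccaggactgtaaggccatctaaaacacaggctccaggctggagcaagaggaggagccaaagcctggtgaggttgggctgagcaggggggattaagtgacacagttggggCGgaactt
Plagl1: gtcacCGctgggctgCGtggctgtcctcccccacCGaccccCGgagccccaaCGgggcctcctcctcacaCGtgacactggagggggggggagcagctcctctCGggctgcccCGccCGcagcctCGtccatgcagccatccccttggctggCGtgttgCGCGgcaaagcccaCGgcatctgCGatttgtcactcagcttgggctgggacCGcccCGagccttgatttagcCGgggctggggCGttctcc
Peg3: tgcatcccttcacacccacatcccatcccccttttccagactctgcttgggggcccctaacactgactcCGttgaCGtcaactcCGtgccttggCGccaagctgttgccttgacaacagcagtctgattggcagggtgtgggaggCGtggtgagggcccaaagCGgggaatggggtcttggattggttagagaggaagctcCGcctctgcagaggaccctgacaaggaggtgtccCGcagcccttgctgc

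The Igf2r window held 27 CG and the Airn window 2, against a median of 6 over 32851 such windows. Bases after the starts were not counted, so CG there are not described. Windows with at least as many CG as Igf2r made up 8.56% of all, and 81.2% had at least as many as Airn. The Plagl1 window held 19 CG and the Peg3 window 8. Starts were found for 30 of the 36 genes, in 45 windows, and their median was 10 CG with a range of 0 to 40. The E-box letters CACGTG, which read the same on both strands and are the core that MYC and TFEB family factors bind, occurred at 2 places before the Igf2r start. They lay 48 to 43 and 7 to 2 bases before it. Of all windows 6.02% held this motif at least at 1 place and 0.429% at 2 or more, and windows of Osbpl5 and Plagl1 held it at 1 place. The letters TGCCGC, to which the imprint-protecting factor ZFP57 binds when methylated, were searched on both strands. They were found in 9 of the 45 windows, belonging to 8 genes, and in 8.68% of all windows. Nothing is read from these shares. The motif holds a CG, and the listed genes' windows had a higher median of CG. Windows of Mest that overlap each other are among the 9, and Usf3 is among the 8 genes. These matches are descriptions of letters in the window, not of bound sites.

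Levels are given as FPKM, in which fragments are divided by the length of the gene's transcripts and by library size, so they can be compared between genes per length. A gene entered the fit where at least 3 of the 6 libraries reached 1 FPKM. Of the 36 genes 22 did so, of the 35 imprinted ones 21. Igf2r, Peg10 and Gnas had the highest levels, and 5 genes were listed at 0 in every library. The other 9 genes outside the fit did not exceed 0.662 FPKM in any library. Usf3 was under 1 FPKM in control replicates 1 and 2 and passed through its mitochondria libraries, so the filter favoured a difference in it.

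**Figure D1:**
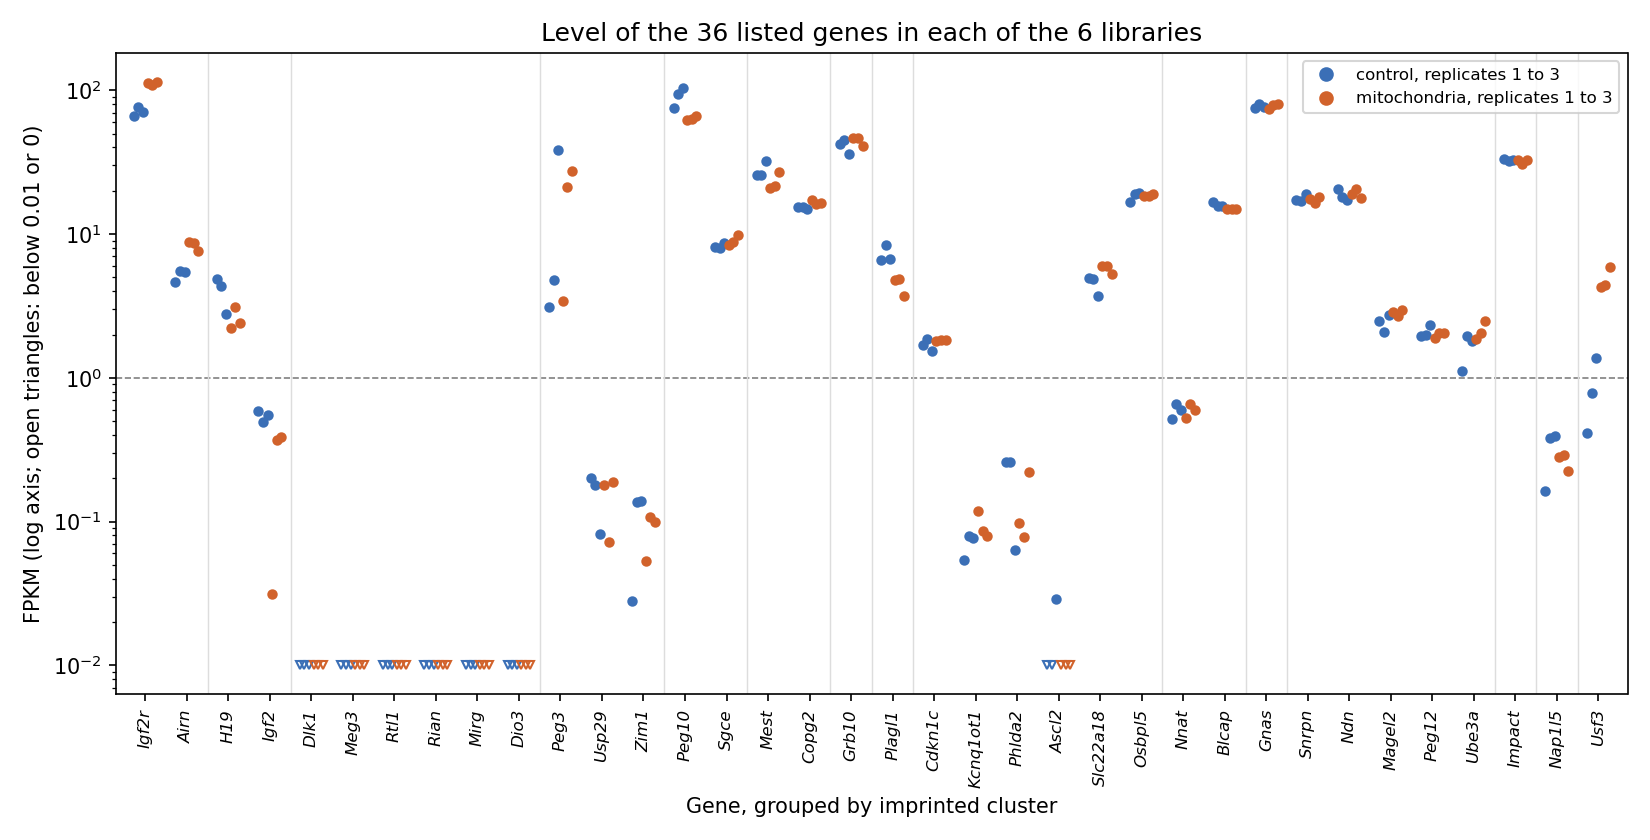
FPKM of each of the 36 genes in each library on a log axis, grouped by cluster, with the 3 control libraries in blue and the 3 mitochondria libraries in orange. Open triangles are values of 0 or under 0.01, and the dashed line is 1 FPKM. The 6 genes of the Dlk1-Dio3 cluster lie at the floor, and the groups of Igf2r and Airn do not overlap.

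Igf2r and Airn form the first cluster. Igf2r (ENSMUSG00000023830, GRCm38 chromosome 17, 12682406 to 12769664, minus strand) encodes the cation-independent mannose 6-phosphate receptor, which sorts newly made lysosomal enzymes and takes up and degrades the growth factor IGF2. Its level was 65.8, 76.0 and 71.0 FPKM in control replicates 1 to 3 and 112, 109 and 114 FPKM in mitochondria replicates 1 to 3. Every mitochondria library lay above every control. The ratio of the group means was 1.57, and the log2 difference of log2(FPKM + 1), mitochondria minus control, was 0.65 with a standard error of 0.06. Airn (ENSMUSG00000078247, chromosome 17, 12741311 to 12860136, plus strand) was at 4.66, 5.55 and 5.40 FPKM in the controls and at 8.75, 8.66 and 7.60 FPKM with mitochondria. Its groups did not overlap either, the ratio of means was 1.60, and the log2 difference was 0.59 with a standard error of 0.08. Airn amounted to 7.08%, 7.30% and 7.61% of the Igf2r level in the controls and to 7.81%, 7.94% and 6.67% with mitochondria, so this share overlapped between the groups. No test is given for the pair, since these differences chose the list.

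The Airn gene starts 28354 bases inside the 5′ end of Igf2r. Its annotated exons share no base with exons of Igf2r, and of their 3597 merged bases 114 (3.17%) lie within the Igf2r span. The other 3483 bases lie beyond the start of Igf2r. Airn is known to be mostly unspliced, and the annotation counts only its spliced exons. No source used here says whether quantification used strand, so reads of Igf2r introns and of Airn cannot be told apart over the shared stretch.

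A further 5 annotated genes lie inside the Airn span and beyond Igf2r. They were looked at after the values were seen. All 5 passed the filter. In 4 of them every mitochondria library exceeded every control, against 9.62% of the 12639 genes tested that were higher in that way. Nothing is read from this count, since all 5 lie inside Airn, whose difference chose the list, and CT030636.1 passed the filter through its mitochondria libraries alone. The pseudogene Gm16574, on the strand of Airn, was at 5.93, 5.20 and 5.31 FPKM in the controls and 7.85, 8.36 and 7.81 FPKM with mitochondria. Its log2 difference was 0.48 with a standard error of 0.07. No test is given for Gm16574, since it lies inside Airn and shares its strand. Its reads can come from unspliced Airn or from the parent gene of the pseudogene. On the opposite strand, the non-coding CT030636.2 was at 0.369, 0.911 and 1.35 FPKM and then at 2.23, 1.80 and 1.83 FPKM. CT030636.1, on the same strand as CT030636.2, was at 0, 0.185 and 0.602 FPKM in the controls and 1.14, 1.06 and 1.43 FPKM with mitochondria. CT030636.2 also needed its mitochondria libraries to pass the filter, so the filter favoured a difference in both. Limma called neither, and nothing is read from their fit. The groups of the pseudogene Gm7162 were separated narrowly, with a highest control of 5.91 and a lowest mitochondria library of 5.93 FPKM. Gm23833 was the 1 gene of the 5 whose groups overlapped. Mas1, a receptor gene that reaches into the far end of Airn, did not exceed 0.194 FPKM.

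Within 600 kb of the Airn start, 12 genes other than Igf2r and Airn that passed the filter are reported here. The 4 inside Airn named above were higher in every mitochondria library, 0 were lower in that way and 8 overlapped. These counts do not cover every gene of the region, so nothing is read from where the 4 lie. Slc22a2 and Slc22a3, which Airn silences in placenta, did not exceed 0.0345 and 0.387 FPKM. Beyond Airn, Tcp1, a subunit of the cytosolic chaperonin, was at 45.8 ± 3.59 and 46.4 ± 0.529 FPKM (SD, n = 3 in each group). Sod2, the mitochondrial superoxide dismutase, was at 7.93 ± 0.0646 and 7.77 ± 0.719 FPKM. Acat2, an enzyme that joins acetyl-CoA units, was at 64.0 ± 4.35 and 74.4 ± 6.98 FPKM with overlapping groups (limma adjusted p = 0.334). Over chromosome 17 as a whole 657 genes were tested, of which 10.2% were higher without overlap and 8.68% lower, with a median log2 difference of −0.01.

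**Figure D2:**
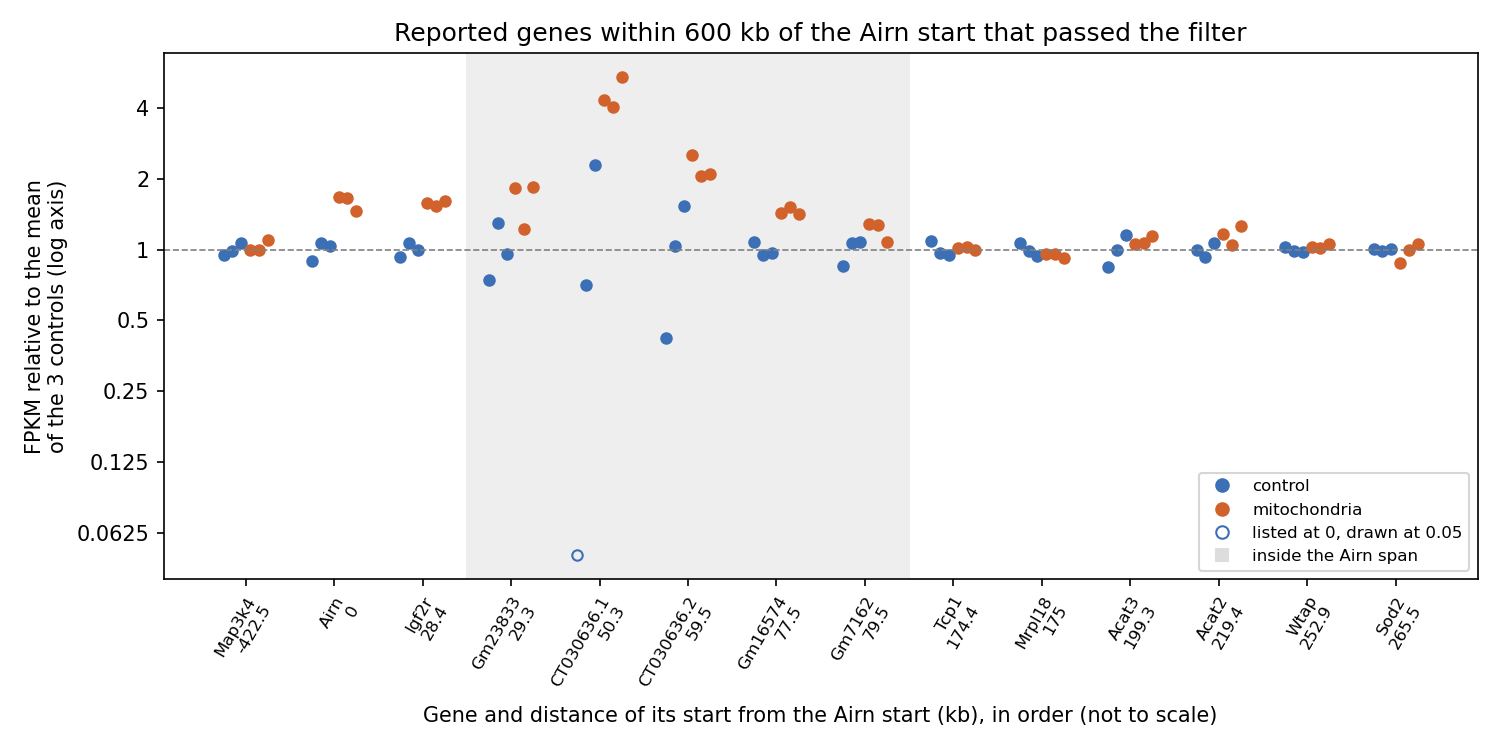
FPKM relative to the mean of the 3 controls, on a log axis, for the 14 reported genes within 600 kb of the Airn start that passed the filter, in order of the distance of their starts from it. Blue points are control libraries, orange points mitochondria libraries, grey shading marks genes inside the Airn span, and the open point is a value listed at 0. Igf2r, Airn and 4 of the shaded genes have all orange points above all blue ones, and the genes on the right overlap.

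In the other clusters limma called none of 19 members, the set without Igf2r, Airn and Usf3. Over all 12639 genes 1.12% were called at an adjusted p under 0.05 (0.467% higher, 0.649% lower). At an unadjusted p under 0.05, 2 of the 19 were higher and 3 lower, where 13.9% of all genes passed (6.58% higher, 7.32% lower). The groups did not overlap in 5, of which 2 were higher and 3 lower, and over all genes 21.0% did not overlap (9.62% higher, 11.4% lower). The median log2 difference of the 19 was 0.02, against −0.01 over all genes, and 12 of them lay within 0.2 of 0. Counting all 22, limma called 3 higher, which are the 3 genes with differences known beforehand, and 0 lower. Nothing is read from that count.

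**Figure D3:**
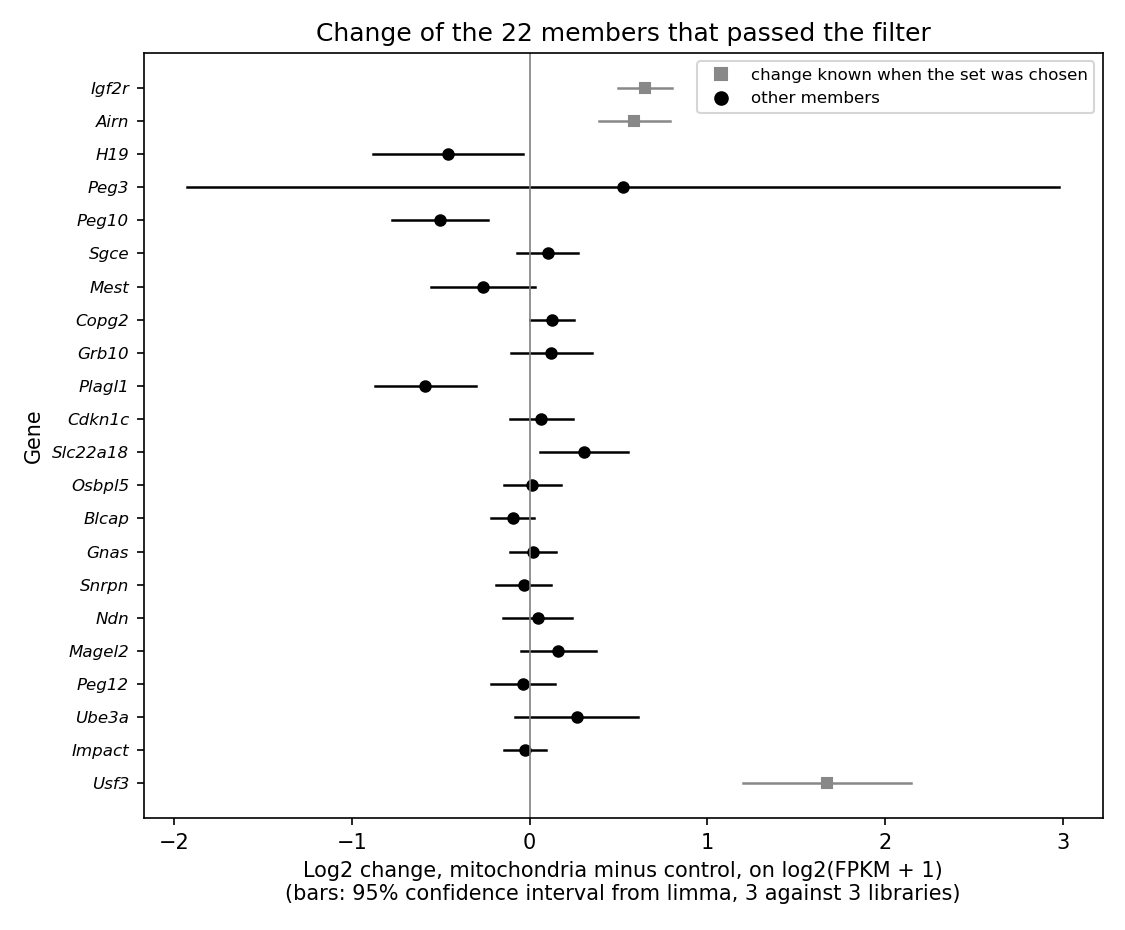
Log2 difference of log2(FPKM + 1), mitochondria minus control, with its 95% confidence interval from limma, for the 22 genes that passed the filter. Grey squares are the 3 genes whose difference was known when the list was made and black circles the other 19. Peg3 has the widest interval, from −1.93 to 2.98, and most other circles lie near 0.

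Of the 19, the lowest log2 differences belonged to Plagl1, Peg10 and H19. Plagl1 (ENSMUSG00000019817) encodes a zinc finger transcription factor that restrains growth and acts on other imprinted genes. It was at 6.62, 8.36 and 6.70 FPKM in the controls and 4.81, 4.90 and 3.73 FPKM with mitochondria, so all 3 mitochondria libraries lay below all controls. The log2 difference was −0.59 with a standard error of 0.12, and the limma adjusted p of 0.0865 missed the threshold.

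Peg10 (ENSMUSG00000092035), a paternally expressed gene derived from a retrotransposon and required in the placenta, was at 75.6, 93.9 and 104 FPKM in the controls and 61.7, 63.2 and 66.0 FPKM with mitochondria. Its groups did not overlap, and the controls spread more widely than the treated libraries. The log2 difference was −0.50 with a standard error of 0.11 (limma adjusted p = 0.115). Without control replicate 1, the lowest control, it was −0.63 with a limma adjusted p of 0.031. Sgce, the sarcoglycan gene that shares a promoter region with Peg10 and is also expressed from the paternal copy, was at 8.26 ± 0.368 and 8.95 ± 0.738 FPKM (SD, n = 3 in each group). Its groups overlapped, and the 95% interval of its log2 difference ran from −0.07 to 0.28.

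H19, a maternally expressed non-coding RNA, and Igf2, the paternally expressed growth factor next to it, share enhancers and are regulated in opposite ways. H19 was at 4.86, 4.34 and 2.77 FPKM in the controls and 2.23, 3.11 and 2.42 FPKM with mitochondria. Mitochondria replicate 2 exceeded control replicate 3, so the groups overlapped, and the log2 difference of −0.46 had a limma adjusted p of 0.317. Igf2 was at 0.589, 0.496 and 0.554 FPKM in the controls and 0.0311, 0.369 and 0.385 FPKM with mitochondria, too low to be tested, and every mitochondria library lay below every control. The annotation gives a second gene, Gm49394, that covers 62.8% of the exonic bases of Igf2 on the same strand. That gene was at 0 in all controls and in mitochondria replicate 3, and at 0.307 and 0.0178 FPKM in mitochondria replicates 1 and 2, so reads of Igf2 may be divided between them and its value is uncertain.

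Slc22a18 and Copg2 were the members that were higher in every mitochondria library, apart from the 3 known beforehand. Slc22a18, a maternally expressed transporter of the Kcnq1ot1 cluster, was at 4.92, 4.83 and 3.73 FPKM and then at 6.03, 6.04 and 5.26 FPKM (log2 difference 0.31, standard error 0.11, limma adjusted p = 0.257). Copg2, a coat protein subunit of vesicles of the Golgi, was at 15.4, 15.3 and 14.8 FPKM and then at 17.4, 16.2 and 16.4 FPKM, a log2 difference of 0.13 (limma adjusted p = 0.342). Its neighbour Mest, a paternally expressed hydrolase-like gene, was at 27.95 ± 3.67 and 23.1 ± 3.30 FPKM (SD, n = 3 in each group), with overlapping groups. Exons of Mest and Copg2 share 912 bases on opposite strands, 23.1% of Mest and 17.8% of Copg2, so their reads may not be fully separated.

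In the rest of the Kcnq1ot1 cluster the groups overlapped for each gene. Kcnq1ot1, the paternal non-coding RNA that silences the cluster, lay between 0.0543 and 0.118 FPKM. Cdkn1c, a maternally expressed inhibitor of cyclin-dependent kinases, was at 1.70 ± 0.160 and 1.82 ± 0.0188 FPKM (SD, n = 3 in each group). Phlda2, which limits placental growth, did not exceed 0.261 FPKM, and Ascl2, a trophoblast transcription factor, had a value above 0 in 1 library, control replicate 3, at 0.0290 FPKM. Osbpl5, an oxysterol-binding protein relative, was at 18.3 ± 1.52 and 18.5 ± 0.305 FPKM.

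The Dlk1-Dio3 cluster on chromosome 12 was listed at or near 0 in both groups. Its paternally expressed protein genes are Dlk1, a Notch ligand relative, Rtl1, derived from a retrotransposon, and Dio3, which inactivates thyroid hormone. Its maternally expressed non-coding RNAs are Meg3, Rian and Mirg. Dlk1, Meg3, Rtl1, Mirg and Dio3 were listed at 0 in all 6 libraries, and Rian at 0.00143 FPKM in 1 mitochondria library and 0 elsewhere. A listed 0 need not mean absent RNA in files without counts. Suz12, a core subunit of the Polycomb complex PRC2, was listed at 0 in 5 libraries and at 0.0148 FPKM in the other, while its partners Ezh2 and Eed were at 10.3 ± 1.015 and 7.39 ± 0.292 FPKM in the controls (SD, n = 3).

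Peg3 differed between libraries of the same group more than between the groups. It encodes a paternally expressed zinc finger protein (ENSMUSG00000002265, chromosome 7, 6703892 to 6730431, minus strand). Its level was 3.11, 4.81 and 38.3 FPKM in control replicates 1 to 3 and 3.41, 21.3 and 27.6 FPKM in mitochondria replicates 1 to 3. Control replicate 3 and mitochondria replicates 2 and 3 were thus high, and the remaining 3 libraries low. The highest control was 12.3 times the lowest, and the highest mitochondria library 8.10 times the lowest, where the medians over all tested genes were 1.18 and 1.13. Of 12639 genes 24, Peg3 included, were at least as wide in both groups. No other annotated gene overlaps Peg3. Its partners were low in all libraries. Usp29, which starts beside Peg3 on the other strand, lay between 0.0719 and 0.1996 FPKM, and Zim1, a maternally expressed zinc finger gene, between 0.0281 and 0.139 FPKM. The log2 difference of Peg3 was 0.53 with a standard error of 1.03, and without control replicate 1 it was −0.10. A change with mitochondria was thus not detectable for this gene.

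**Figure D4:**
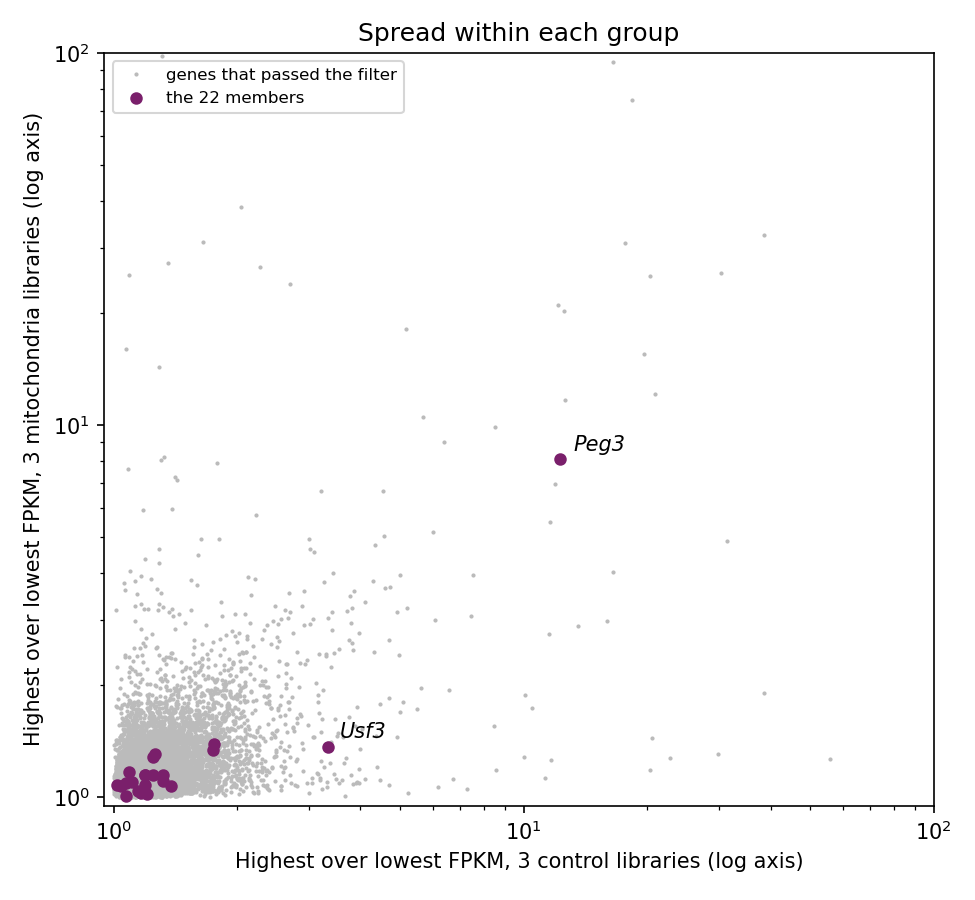
Highest over lowest FPKM among the 3 control libraries and among the 3 mitochondria libraries, on log axes, for the genes that passed the filter (grey) and the 22 members (purple). 23 genes beyond 100 or with a library at 0 are not drawn. Peg3, at 12.3 and 8.10, stands apart from the other members, and Usf3 is next in the controls at 3.33.

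Genes of the Snrpn-Ube3a cluster, the mouse counterpart of the Prader-Willi and Angelman region, were expressed in both groups. Snrpn, a splicing protein, was at 17.75 ± 1.07 and 17.3 ± 0.873 FPKM (SD, n = 3 in each group), and Ndn, a MAGE family protein that restrains proliferation, at 18.5 ± 1.71 and 19.1 ± 1.35 FPKM. Magel2, which acts in endosomal sorting, was at 2.44 ± 0.331 and 2.83 ± 0.144 FPKM. Peg12 was at 2.08 ± 0.201 and 2.00 ± 0.0865 FPKM. The groups of all these genes overlapped. Ube3a, a ubiquitin ligase that is imprinted in neurons, was at 1.12, 1.97 and 1.80 FPKM and at 1.87, 2.04 and 2.498 FPKM (limma adjusted p = 0.485), and control replicate 2 exceeded mitochondria replicate 1. Snrpn shares 27.3% of its exonic bases with the predicted gene Gm38393 on the same strand.

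Among the remaining members that were tested, Gnas, Impact, Grb10 and Blcap, the groups did not overlap for Blcap. Gnas, the stimulatory G protein subunit, was at 76.9 ± 2.53 and 77.96 ± 3.61 FPKM, and the 95% interval of its log2 difference ran from −0.11 to 0.15. Impact, a translation regulator, was at 32.7 ± 0.280 and 32.2 ± 1.35 FPKM, with an interval from −0.15 to 0.09. Grb10, an adaptor that inhibits insulin and IGF1 receptors, was at 41.05 ± 4.61 and 44.7 ± 3.37 FPKM, with overlapping groups. Blcap was at 16.7, 15.8 and 15.7 FPKM in the controls and at 14.8, 15.0 and 15.0 FPKM with mitochondria, and the log2 difference of −0.10 had a limma adjusted p of 0.459. Nnat, a neuronal membrane protein gene inside an intron of Blcap, lay between 0.513 and 0.662 FPKM. Nap1l5, inside an intron of Herc3, lay between 0.162 and 0.393 FPKM. These means carry SDs over n = 3 libraries in each group.

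By parental copy, 4 of 10 maternally and 11 of 19 paternally expressed members were tested, as were all 6 of those whose imprinting depends on the tissue. Leaving out Igf2r and Airn, which chose the list, the maternally expressed Slc22a18 was higher without overlap and the paternally expressed Peg10 and Plagl1 were lower. Of the tissue-dependent genes, Copg2 was higher and Blcap lower, where over all genes 9.62% were higher and 11.4% lower. The difference between these classes was not tested.

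Usf3 (ENSMUSG00000068284) is a gene of the basic helix-loop-helix family at 44173246 to 44227465 of chromosome 16, which holds no other member. It was at 0.416, 0.786 and 1.38 FPKM in the controls and 4.27, 4.41 and 5.87 FPKM with mitochondria. The groups did not overlap, and the ratio of means was 5.62. Its log2 difference of 1.67 had a standard error of 0.20. Usf3 passed the filter through its mitochondria libraries, so the filter favoured this difference. It is given with no test, as its difference was known.

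Genes that act with Igf2r are described without Igf2r itself. Of 19 others in a list for mannose 6-phosphate sorting, all were tested and limma called 0, with 0 at an unadjusted p under 0.05. M6pr, the other mannose 6-phosphate receptor, was at 35.6 ± 1.12 and 36.3 ± 0.311 FPKM (SD, n = 3 in each group). The median log2 difference of the 19 was 0.03, against −0.01 over all genes. In a list for insulin-like growth factor signalling 18 others were tested and limma called 0, with 2 higher and 2 lower at an unadjusted p under 0.05, and the median was −0.03. Over all genes limma called 1.12%, and 6.58% were higher and 7.32% lower at an unadjusted p under 0.05. Igf1r, the signalling receptor for IGF1 and IGF2, was at 2.14, 2.59 and 2.74 FPKM and then at 3.18, 3.15 and 3.12 FPKM (limma adjusted p = 0.24), and Igfbp4, an IGF-binding protein, at 272, 254 and 284 FPKM and then at 194, 204 and 224 FPKM (limma adjusted p = 0.073). Igf1r was higher and Igfbp4 lower in every mitochondria library. In that way 2 of the 18 were higher and 2 lower, where over all genes 9.62% were higher and 11.4% lower. M6pr, Igf1r and Igfbp4, like Tcp1, Sod2 and Dnmt1, are named although no rule picked them, with their values known.

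Factors that lay down or protect imprints had 23 of 30 genes tested and 0 called by limma, with 0 higher and 1 lower at an unadjusted p under 0.05. The 1 was Dnmt3a, a de novo DNA methyltransferase, at 15.3, 17.6 and 16.8 FPKM in the controls and 12.3, 15.6 and 13.8 FPKM with mitochondria (limma adjusted p = 0.327). Dnmt1, which maintains methylation, was at 27.02 ± 1.24 and 26.1 ± 1.02 FPKM (SD, n = 3 in each group). A list of 52 further genes reported as imprinted had 30 tested and 0 called by limma, with 4 higher and 1 lower at an unadjusted p under 0.05. For both lists, the shares over all genes were 6.58% higher and 7.32% lower at that limma p, and 1.12% called. Nothing is read from these counts. The smallest p of the 30 was that of Qpct, a glutaminyl cyclase (limma adjusted p = 0.0661). It was at 6.05, 5.53 and 5.33 FPKM and then at 8.70, 8.75 and 7.26 FPKM, and its groups did not overlap.

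Several measures of the whole libraries bear on these levels. The files give no counts, and a rough depth read from the steps between low FPKM was 17300000 to 21500000 fragments in the controls and 22300000 to 27500000 with mitochondria, without overlap. Between 5.92% and 12.8% of the low values in a library lay within 0.02 of a whole step. The depths, and their separation by group, are therefore uncertain. Whether depth has a part in the differences was not tested. The summed level of the endothelial markers was 141 to 148 FPKM in the controls and 163 to 175 FPKM with mitochondria. Most of that difference lay in Cd34, called higher by limma at 60.3 ± 2.495 and 80.1 ± 1.84 FPKM (SD, n = 3 in each group), while Flt1 (limma adjusted p = 0.114) and Kdr (limma adjusted p = 0.143) were lower without overlap. Fibroblast and mural markers, 8 of 15 under 1 FPKM, summed to 477 to 505 and 407 to 444 FPKM. Col1a1 and Fbln1 were called lower by limma and Postn was lower without overlap, whereas Pdgfra and Acta2 were higher without overlap and Col3a1 overlapped. Of 15 astrocyte markers 5 were listed at 0 in every library, and Gfap did not exceed 0.198 FPKM. Aldh1l1 was at 0.416, 0.455 and 0.302 FPKM in the controls and 0.972, 1.15 and 1.06 FPKM with mitochondria, and did not pass the filter. Aldoc was higher without overlap (limma adjusted p = 0.268). Of the 5 astrocyte markers tested, Aldoc included, 2 had a positive log2 difference and 3 a negative one, with a median of −0.04. The astrocyte sum, 68.6 to 106 FPKM and 84.6 to 88.1 FPKM, overlapped, with Gja1 at 11.7 FPKM in control replicate 2 and 45.7 and 45.98 FPKM in the other controls. The part of these marker levels in the results above was not tested. In bulk RNA, fewer cells of a type and less RNA per cell cannot be told apart. The labels do not say whether the replicates are separate cultures. Each p-value therefore reflects the variation among these 6 libraries alone, and that variation may be technical.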

How the data were processed

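For each library the authors deposited values of 55335 Ensembl identifiers, taken here as FPKM from their sums and low steps, since the headers name no unit. The tools listed per the submitters' processing notes are StringTie 1.3.1c, STAR 2.5.3a and FastQC 0.11.5, with the genome GRCm38 (mm10). No source used here names the annotation release. Symbols, exons and positions came from GENCODE M21 (GRCm38), which matched 55154 identifiers, and promoters from RefSeq (GRCm38.p6). On log2(FPKM + 1), a scale that understates the change of low genes, limma 3.58.1 (R 4.3.3) compared the groups with no further term, using the trend and robust options and two-sided tests with Benjamini-Hochberg adjustment over 12639 genes. Whole reads could not be recovered from the FPKM, so no count model was used. The fit was tested on 20 simulated data sets with 200 changed genes each, changed on the scale of FPKM + 1. It recovered 66.4% of the genes changed 1.5-fold and 89.1% of those changed 2-fold, and 4.57% of calls were false. A gene that was not called may therefore still differ. The members and lists were chosen with earlier results of these data known. All 36 members were accounted for, and from each of the 5 further gene lists up to 4 called members were named, or the 1 with the smallest p among those reported. Marker genes were named with their values known. No sequences were used for H19, Peg10, Sgce, Rtl1, Cdkn1c and Impact. Alternatives were other pseudocounts, filters, scalings, variance models, a replicate block and omission of each library. The astrocyte, neuron, microglia and trophoblast marker lists had 5, 1, 2 and 2 tested genes. Of these limma called 1, the germ cell gene Ddx4, among the trophoblast and germ cell markers, where 1.12% of all genes were called. Of 8 listed genes near Igf2r without imprinting 5 were tested and 0 called by limma. At an unadjusted limma p under 0.05 there was 1, where 13.9% of all genes passed. A further gene near Igf2r is not reported here.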

Additional observations from a re-analysis of the deposited data

How the results depend on the processing

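The count of genes called by limma was 141, and it was 106 to 156 with pseudocounts of 0.1 and 0.01, a mean of at least 5 FPKM, trimmed-mean scaling, quantile normalization, rescaling to TPM and plain empirical Bayes. With no filter it was 13, of 29365 genes tested, and the count of listed genes called higher fell from 3 to 0. With the replicate number as a block 56 genes were called, and 2 listed genes higher. The values do not settle whether the replicate numbers pair the samples. Deviations of same-numbered libraries correlated at 0.10, 0.05 and 0.30 across genes. The correlation of the replicates numbered 3 was the highest of all pairs. Control replicate 2 correlated best with mitochondria replicate 1, at 0.12. Leaving out each library in turn gave 14 to 88 genes called, 0 to 2 listed genes called higher and 0 to 1 called lower, the 1 being Peg10 without control replicate 1. Called higher were 0 listed genes without any single mitochondria library and 1 without control replicate 2. All calls of higher listed genes concern the 3 with differences known beforehand, and nothing is read from them. In those 6 fits the log2 difference ranged from 0.60 to 0.70 for Igf2r, 0.53 to 0.65 for Airn, 1.49 to 1.87 for Usf3 and −0.64 to −0.49 for Plagl1. The sign turned in at least 1 of them for Peg3 (−0.101 to 1.529), Osbpl5 (−0.050 to 0.057), Gnas (−0.007 to 0.057), Snrpn (−0.060 to 0.013), Ndn (−0.007 to 0.113), Peg12 (−0.068 to 0.016) and Impact (−0.043 to 0.009). The cause was not tested. Genes that did not pass the filter were not tested, and without counts their precision is unknown.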
